A study of Caenorhabditis elegans with 46 samples.

Results

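Sequence-named genes of Caenorhabditis elegans that rose early in fasting were taken as one group: probe sets whose single gene symbol is a sequence name, a name made of a clone and a gene number on it, such as F45D3.4. Members were chosen by their intensity in the Fed 0 h, Fast 3 h and Fast 6 h arrays. The deposited intensity was 100 or more in both arrays of worms fasted for 6 h, and the mean log2 intensity over the 4 arrays fasted for 3 and 6 h exceeded that of the 2 arrays of fed worms at 0 h by 0.7 or more. By these limits 69 probe sets of 63 genes were members, out of 7637 sequence-named probe sets of 6718 genes and 22548 probe sets tested in all.

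The series measured RNA of whole adult worms on 46 Affymetrix arrays, 1 array per sample. In the time course, wild-type N2 worms were grown with food to day 2 of adulthood and then fed or fasted: fed at 0, 24 and 48 h, and fasted for 3, 6, 9, 12, 18, 24, 36 and 48 h, with 2 arrays per group. In the mutant set, N2 and worms labelled as kgb-1, jun-1 and daf-16 mutants, all in the N2 background, were sampled fed and fasted on day 4 of adulthood, with 3 arrays per group. The labels give neither the lesion of a mutant nor how long the mutant set was fasted, and they describe the replicates as independent experiments, 2 for the time course and 3 for the mutant set.

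A worm without food stops pumping bacteria through the pharynx, draws on the fat and yolk held in its intestine and hypodermis, slows reproduction and, in adults, reshapes the germline. Transcripts for fat breakdown and stress defence are known to rise within hours of food removal. KGB-1 is a kinase of the JNK family and JUN-1 is the worm's Jun-type AP-1 transcription factor, which JNK-type kinases act on in animals. DAF-16 is the FOXO transcription factor that insulin-like signalling holds in the cytoplasm of fed worms. Genes still carrying a sequence name had no gene-class name in the annotation used, and neither that annotation nor the reference gene table describes their products, so no role is given here for any member. The reference calls 62 of the 63 genes protein-coding and F35E12.4 a pseudogene.

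Replicate arrays correlated at 0.986 or more in the time course, and those of the mutant set at 0.93 or more (lowest Pearson's r per group, across probe sets), and median intensity per array ran from 60.1 to 84.0 and from 60.2 to 85.4. The jun-1 probe set 188946_at checked its label: it read 705 ± 99.1 in fed N2 but 19.2 ± 3.85 in fed jun-1 worms (SD, n = 3), near the floor of 16 of the deposited values. Another jun-1 probe set, 180818_at, overlapped, at 205 ± 44.3 in fed N2 and 148 ± 43.1 in fed jun-1 worms (SD, n = 3). The daf-16 probe set 175678_at read 303 ± 90.8 in fed N2 but 148 ± 8.66 in fed daf-16 worms (SD, n = 3). The daf-16 probe sets 175823_s_at (559 ± 36.6 and 413 ± 96.1) and 188176_s_at (200 ± 50.7 and 152 ± 47.4) had lower means there but overlapped. 181992_s_at was dim, at 33.4 ± 3.32 and 19.6 ± 3.42. The kgb-1 probe set 173843_s_at did not separate the genotypes, at 174 ± 17.7 in N2 and 187 ± 33.3 in kgb-1 worms when fed (SD, n = 3), which checks nothing where the lesion is unknown. Defining markers of intestine, germline, body muscle, hypodermis and neurons were all above the floor of the values in these whole worms.

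The rise that chose the members ran from 0.702 to 2.30 on the log2 scale, with a median of 0.969. It was 1 or more in 34 members and 1.5 or more in 11. These values are the selection itself and support nothing. Just inside the rise limit were F34H10.3 (188790_at) at 0.702, F14B6.3 at 0.704 and C36B1.6 at 0.715, and just outside were Y43F8B.9 at 0.694, H06I04.6 at 0.687 and F33E2.5 at 0.683. At the intensity limit, the lower of the 2 Fast 6 h arrays read 103 for F23F1.6, 104 for K05B2.4 and 104 for C03B1.13, against 96.6 for T16G1.6, 94.4 for T01B10.5 and 92.9 for F36G9.7 outside it. Of 103 sequence-named probe sets that rose by 0.7 or more, 34 were left out as dim, and 27 of the 2429 bright ones fell by as much.

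Most members were above the typical level of sequence-named genes before fasting, which the intensity limit favours. The median intensity in fed worms at 0 h, as the geometric mean of both arrays, was 146 over members and 47.9 over all sequence-named probe sets. The mean intensity in fed worms at 0 h ran from 29.7 for K05B2.4 to 1644 for F21C10.10, and was under 100 in 23 members and under 50 in 4. Mean intensity in worms fasted for 6 h ran from 105 to 3139. Their genes had a median length of 1702 bp, against 1910 bp for all sequence-named genes. Chromosome X held 19 of the 63 member genes (30.2%), against 15.8% of all sequence-named genes, while chromosomes I and II held 7.94% and 9.52% against 14.2% and 18.5%. Among the 101 genes with a gene-class name that passed the same limits, 19% were on X. These shares were not tested.

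Some members are not independent of each other. There were 6 genes measured by more than 1 member probe set: F45D3.4, F15E6.3, ZC443.3, C08F11.13, F18C5.10 and F34H10.3. F53A9.1 and F53A9.6 lie next to each other on chromosome X, with F53A9.8 beyond 1 further gene, and F15E6.4 and F15E6.3 lie on chromosome IV with 2 genes between them. The probe set name ends in _s_at, a class whose probes can match several transcripts, in 17 members, and 2, F53A9.6 and Y82E9BR.17, end in _x_at, whose probes are less specific still. Values of these probe sets could include signal from related genes.

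The fed worms at 0 h set the baseline for the choice, and their arrays differed. Replicate 1 read below replicate 2 in 62 of the 69 members, against 58.2% of all probe sets, and the median log2 gap was 0.394 in the members and 0.0517 over all probe sets. F45D3.4 (178900_s_at) read 284 and 734 in those arrays, and C06B3.6 read 268 and 1004. The log2 gap between the arrays was 1.37 for F45D3.4, below its selected rise of 2.30, but 1.90 for C06B3.6, above its selected rise of 0.753. It was 0.9 or more in 9 members. Since replicate 1 of Fed 0 h took part in the choice, each rise depends on its level there.

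The choice was therefore repeated with other fed arrays, as an alternative added after seeing the data. Against all 6 fed arrays of the time course (0, 24 and 48 h) 41 of the 69 still rose by 0.7 or more, and 28 did not. Without replicate 1 of Fed 0 h 44 of the 69 remained, and without replicate 2 the limits would have taken 120 probe sets. T16G1.7, Y58A7A.5 and F54B8.4 had no rise against the 6 fed arrays, with log2 differences of -0.11, -0.04 and 0.01. T16G1.7 read 61.2 and 98.0 in fed worms at 0 h but 291 and 295 in fed worms at 24 h and 349.9 and 436 at 48 h. These later fed arrays all read above the 160.4 to 276 of the arrays fasted for 3 and 6 h.

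**Figure D1:**
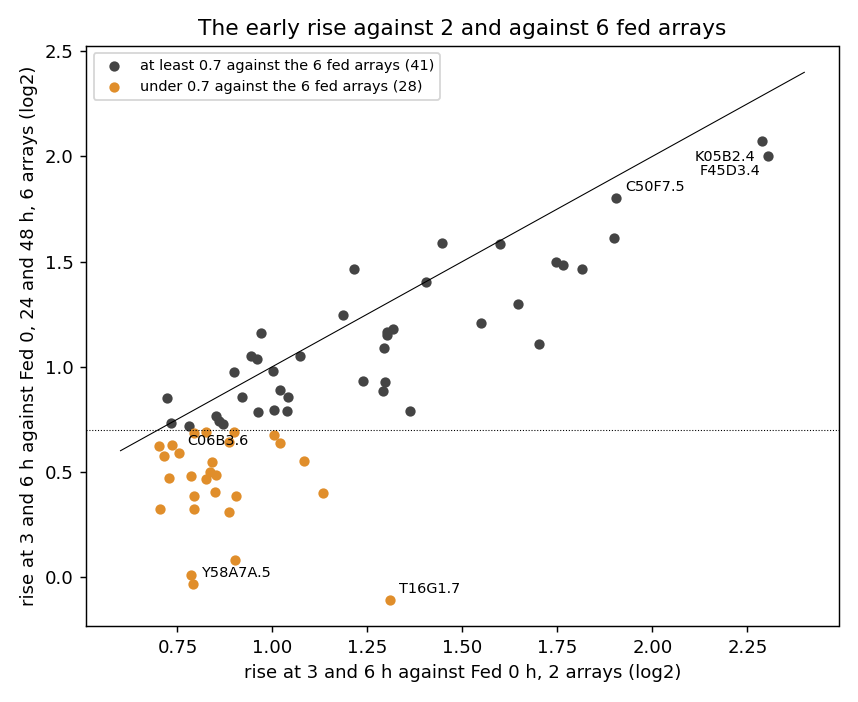
Each point is 1 of the 69 member probe sets. The x axis gives its selected rise, the mean log2 intensity over the arrays fasted for 3 and 6 h minus that of the 2 Fed 0 h arrays, and the y axis the same against the 6 fed arrays of the time course. The line marks equal values and the dotted line 0.7. The 41 dark points stay at or above 0.7 on the y axis, the 28 orange points fall under it, and T16G1.7 and Y58A7A.5 lie near 0.

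Against the same Fed 0 h arrays the members' median went on growing well beyond the hours that chose them. Their median log2 difference from Fed 0 h was 0.831 at 3 h and 1.10 at 6 h, both used in the choice, then 1.60 at 9 h, 1.75 at 12 h, 1.99 at 18 h, 1.77 at 24 h, 1.95 at 36 h and 2.10 at 48 h. All of these share the Fed 0 h arrays with the choice and with each other, so they are a description. Fed worms moved much less, with a median of 0.222 at 24 h and 0.427 at 48 h. At 9 h both arrays read above both Fed 0 h arrays in 69 of 69 members, against 26% of all probe sets. At 48 h this held for 64 members, against 40.7% of all probe sets.

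The hour of the highest mean differed widely. Of the 69, 5 were highest at 3 h (K05B2.4, C10C5.3, B0272.4, Y87G2A.2 and K11H12.4) and none at 6 h, 4 at 9 h and 12 at 12 h. Another 16 were highest at 18 h, 2 at 24 h, 12 at 36 h and 18 at 48 h. Early rise and early peak were thus different things in this group: 30 of the 69 peaked at 36 or 48 h. Group means of 2 arrays set these hours, and neighbouring hours often overlapped between arrays.

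**Figure D2:**
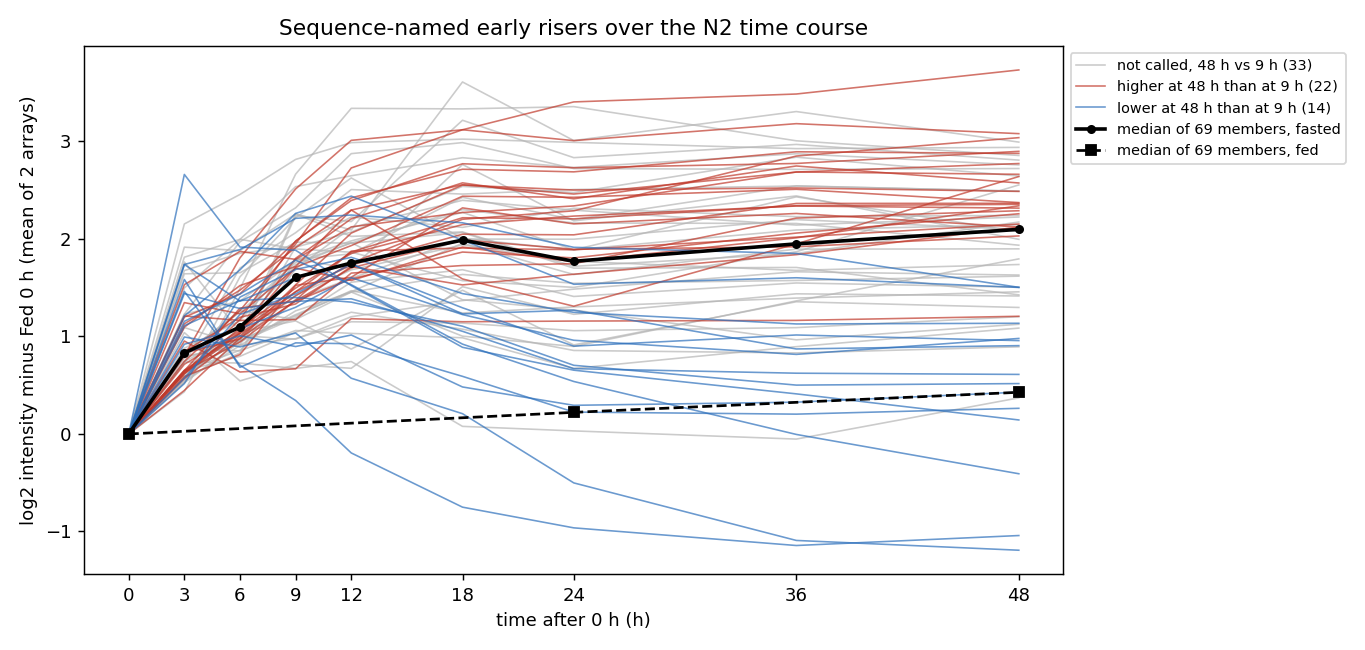
The x axis is the time in hours and the y axis the log2 deposited intensity minus that of Fed 0 h, each a mean over 2 arrays, with 1 thin line per member in fasted worms. Red lines are the 22 members called higher at 48 h than at 9 h, blue lines the 14 called lower and grey lines the 33 not called. The thick black line is the median of the 69 in fasted worms, reaching 2.10 at 48 h, and the dashed line their median in fed worms, reaching 0.427.

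The largest selected rise was that of F45D3.4, measured by a pair of member probe sets. Probe set 178900_s_at read 1802 and 2287 after 3 h without food, 2302 and 2723 after 6 h, 2789 and 3696 after 9 h, 3944 and 3321 after 12 h and 3473 and 3962 after 18 h. It then read 3778 and 3479 after 24 h, 3589.8 and 3349 after 36 h and 3282 and 3727 after 48 h. In fed worms it read 284 and 734 at the start, 491 and 564 at 24 h and 634 and 863 at 48 h. Every fasted array was above every fed array, and from 12 h on the level was flat. The other probe set, 173550_at, averaged 796 ± 545, 803 ± 222 and 1113 ± 186 in fed worms at 0, 24 and 48 h, and 2240.5 ± 362, 2552 ± 598, 2654 ± 284, 3258 ± 131, 3079 ± 812, 3533 ± 977, 3363 ± 1142 and 3322 ± 602 from 3 to 48 h of fasting (SD, n = 2). By both probe sets the fasted level at 48 h was still above every fed array.

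F09F7.6 climbed for longer. It averaged 493 ± 216 in fed worms at 0 h, 545 ± 29.3 at 24 h and 683 ± 93.9 at 48 h (SD, n = 2). In fasted worms it averaged 1333 ± 226 at 3 h, 1884 ± 333 at 6 h, 2721 ± 122 at 9 h, 2939.9 ± 82.5 at 12 h, 3343 ± 150 at 18 h, 3117 ± 110 at 24 h, 3437 ± 37.4 at 36 h and 3174 ± 31.4 at 48 h (SD, n = 2). Its fasted arrays at 3 h, 1173 and 1493, already lay above all 6 fed arrays, the highest of which was 749.

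F47B8.4 and F35E12.4 rose from low levels. F47B8.4 averaged 45.2 ± 5.9, 42.95 ± 4.55 and 49.1 ± 4.58 in fed worms at 0, 24 and 48 h, and 106 ± 8.87, 180.2 ± 51.9, 228 ± 57.8, 333 ± 63.2, 359 ± 58.2, 297 ± 24.2, 296 ± 20.3 and 298 ± 42.96 from 3 to 48 h of fasting (SD, n = 2). The pseudogene F35E12.4 averaged 44.5 ± 4.73, 72.4 ± 10.3 and 93.6 ± 7.4 in fed worms, and 133 ± 50.2, 163 ± 24.8, 154 ± 23.9, 194 ± 27.4, 214 ± 12.1, 224 ± 11.2, 286 ± 4.68 and 281 ± 8.5 over the same hours of fasting (SD, n = 2). The 6 fed arrays of F47B8.4 lay between 39.7 and 52.3, whereas F35E12.4 read higher in fed worms at 24 and 48 h than at 0 h.

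F53A9.1 was highest at 9 h, and F15E6.3 at 12 h by 1 probe set and 18 h by the other. F53A9.1 averaged 219 ± 65.3, 364 ± 7.81 and 229 ± 36.7 in fed worms at 0, 24 and 48 h, and 807 ± 51.9, 802 ± 219, 1021 ± 14.4, 876 ± 144, 900 ± 54.1, 714 ± 173, 775 ± 110 and 965 ± 63.4 from 3 to 48 h of fasting (SD, n = 2). F15E6.3 (180424_at) averaged 212 ± 64.1, 297 ± 36.0 and 300.1 ± 14.9 in fed worms, and 697 ± 138, 774 ± 148, 958 ± 29.3, 981 ± 31.8, 929 ± 77.9, 779 ± 0.705, 751 ± 118.6 and 589.95 ± 92.2 from 3 to 48 h (SD, n = 2). Its second probe set, 180425_s_at, averaged 445 ± 186, 584 ± 52.4 and 643 ± 10.1 fed, and 1332 ± 185, 1343 ± 198, 1660.3 ± 62.1, 1649.7 ± 126, 1779.7 ± 130.3, 1381 ± 84.4, 1387 ± 54.2 and 1143 ± 89.4 fasted (SD, n = 2). Both probe sets of F15E6.3 were past their highest point by 24 h, and 180424_at was called lower at 48 h than at 9 h, by -0.70.

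C50F7.5 had replicates that parted late. It averaged 117 ± 40.5, 111 ± 23.6 and 146 ± 30.8 in fed worms at 0, 24 and 48 h, and 397 ± 2.83, 454 ± 71.8, 422 ± 43.5, 412 ± 8.96, 339 ± 60.2, 321 ± 17.8, 462 ± 294 and 789 ± 601 from 3 to 48 h of fasting (SD, n = 2). At 48 h its arrays read 363 and 1214, so the late mean rests on replicate 2. The other C50F7.5 probe sets were no members and read 16.1 to 20.6 in the Fast 6 h arrays.

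Whether the early rise lasted was tested against fed worms of the same age, in contrasts of arrays that had no part in the choice, although all 22 arrays of the time course, those of the choice included, set the spread. At 24 h 54 members were higher in fasted worms and 3 were lower, against 16.5% and 15.7% of all 22548 probe sets (limma, Benjamini-Hochberg adjusted p under 0.05, two-sided). At 48 h 54 were higher and 4 lower, against 16% and 14.1% of all probe sets. The median difference was 1.37 at 24 h and 1.39 at 48 h in the members, against -0.0291 and -0.0218 over all probe sets, where differences are of log2(intensity + 16) after quantile normalization. A fit of the 16 arrays outside the choice, added after seeing the data, called 53 higher and 3 lower at 24 h and 54 and 4 at 48 h. In the fit of all 22 arrays, both times called 53 members higher, with differences from 0.564 to 3.11 at 24 h and from 0.412 to 2.77 at 48 h over those called higher. Another 9 were called at neither time and had 48 h differences from -0.331 to 0.426.

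The counts were set beside those of members that also passed with other fed arrays. Of the 41 members that also rose against all 6 fed arrays, 75.6% were higher at 24 h and 78% at 48 h, next to 78.3% and 78.3% of the 69. The fed arrays of 24 and 48 h helped to choose these 41 and are also the fed side of both contrasts. Their shares are thus a description and no check of the counts. Of the 44 that passed without replicate 1 of Fed 0 h, 72.7% and 75% were higher. Fed worms at 48 h differed from fed worms at 24 h in none of the 69 members by limma. Of all probe sets, 0.0133% were called higher and 0.00887% lower. An unadjusted p under 0.05 was reached by 4 members on the higher and 2 on the lower side, against 387 and 335 of all 22548 probe sets.

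F43C11.7 was among the clearest of the lasting risers. It read 173 and 154 in fed worms at 24 h and 184 and 176 at 48 h. Fasted worms read 1262 and 1095 at 24 h and 1148 and 1329.8 at 48 h, far above every fed array. The log2 difference was 2.69 ± 0.16 (SE, limma adjusted p = 1.11e-08) at 24 h and 2.59 ± 0.16 (adjusted p = 1.36e-08) at 48 h.

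ZC395.5 behaved alike from a higher level. Fed worms read 418 and 347 at 24 h and 434 and 381 at 48 h. Fasted worms read 2918 and 2893 at 24 h and 2636 and 3131 at 48 h. All of these fasted arrays lay far above all of the fed ones, giving log2 differences of 2.86 ± 0.22 (SE, limma adjusted p = 2.14e-07) and 2.73 ± 0.22 (adjusted p = 2.8e-07).

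ZC443.3 and K09C4.1 were low in fed worms. The probe set 178432_s_at of ZC443.3 read 115 and 117 in fed and 649 and 694 in fasted worms at 48 h, a log2 difference of 2.30 ± 0.15 (SE, limma adjusted p = 2.92e-08), after 2.38 ± 0.15 (adjusted p = 2.4e-08) at 24 h. K09C4.1 read 93.2 and 77.8 in fed and 489 and 543 in fasted worms at 48 h, a difference of 2.28 ± 0.13 (adjusted p = 8.74e-09), after 1.78 ± 0.13 (adjusted p = 2.07e-07) at 24 h. Neither gene's fed and fasted arrays overlapped at either time. F18C5.10 (180537_s_at), at 341 and 448 fed and 1361 and 1374 fasted at 48 h, completed the 5 members with the smallest adjusted p at that time, with a difference of 1.73 ± 0.14 (SE, limma adjusted p = 3.82e-07).

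F53A9.8 had the largest difference of the members at 24 h. It was hardly above fed worms at 3 h, with 609 and 755 against 401 and 629 at 0 h, and then read 1035 and 1925 after 6 h, 3469 and 2924 after 9 h and 5327 and 4854 after 12 h. At 24 h it read 5439 and 4871 in fasted and 622 and 593 in fed worms, a difference of 3.11 ± 0.24 (SE, limma adjusted p = 2.47e-07). Its neighbours on chromosome X had smaller differences: F53A9.1 differed by 0.97 at 24 h and 1.96 at 48 h, and F53A9.6 by 1.37 and 1.41.

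Other cell types' markers moved in the same arrays. At 24 h 6 of 8 germline markers were lower in fasted worms, with a summed intensity of 10389 to 14502 against 22005 to 22875 in fed worms, and at 48 h 4 of 8, with 13098 to 15794 against 21659 to 24329. Of 8 intestinal markers 3 were lower and 1 higher at 24 h, with sums of 15107 to 17741 against 22194 to 22413. Of 6 neuronal markers 4 were higher at 24 h, with sums of 4030.2 to 4156 against 2530.4 to 2968, and 2 at 48 h, with 4109 to 4398 against 2828 to 3185. At 48 h 4 of 8 intestinal markers were lower and 1 higher, with sums of 13909 to 15325 against 20361 to 22364. Of 6 hypodermal markers 4 were lower at both times, with sums of 1234 to 1499 against 2716 to 2952 at 24 h and of 958 to 1248 against 2331 to 2411 at 48 h. Of 5 body muscle markers 3 were higher at 24 h, with sums of 6443 to 6876 against 5139 to 5984, and at 48 h 2 were higher and 1 lower, with overlapping sums. Of 4 embryo markers 2 were higher at both times. Their sums were 666 to 711 against 369 to 394 at 24 h and 764 to 794 against 375 to 382 at 48 h. Of 3 pharynx markers none was called at 24 h and 2 were higher at 48 h, and none of the 3 sperm markers measured was called at either time. In these whole worms, more cells of a type and more RNA per cell cannot be told apart, and the part of tissue makeup in the members' rise was not tested.

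**Figure D3:**
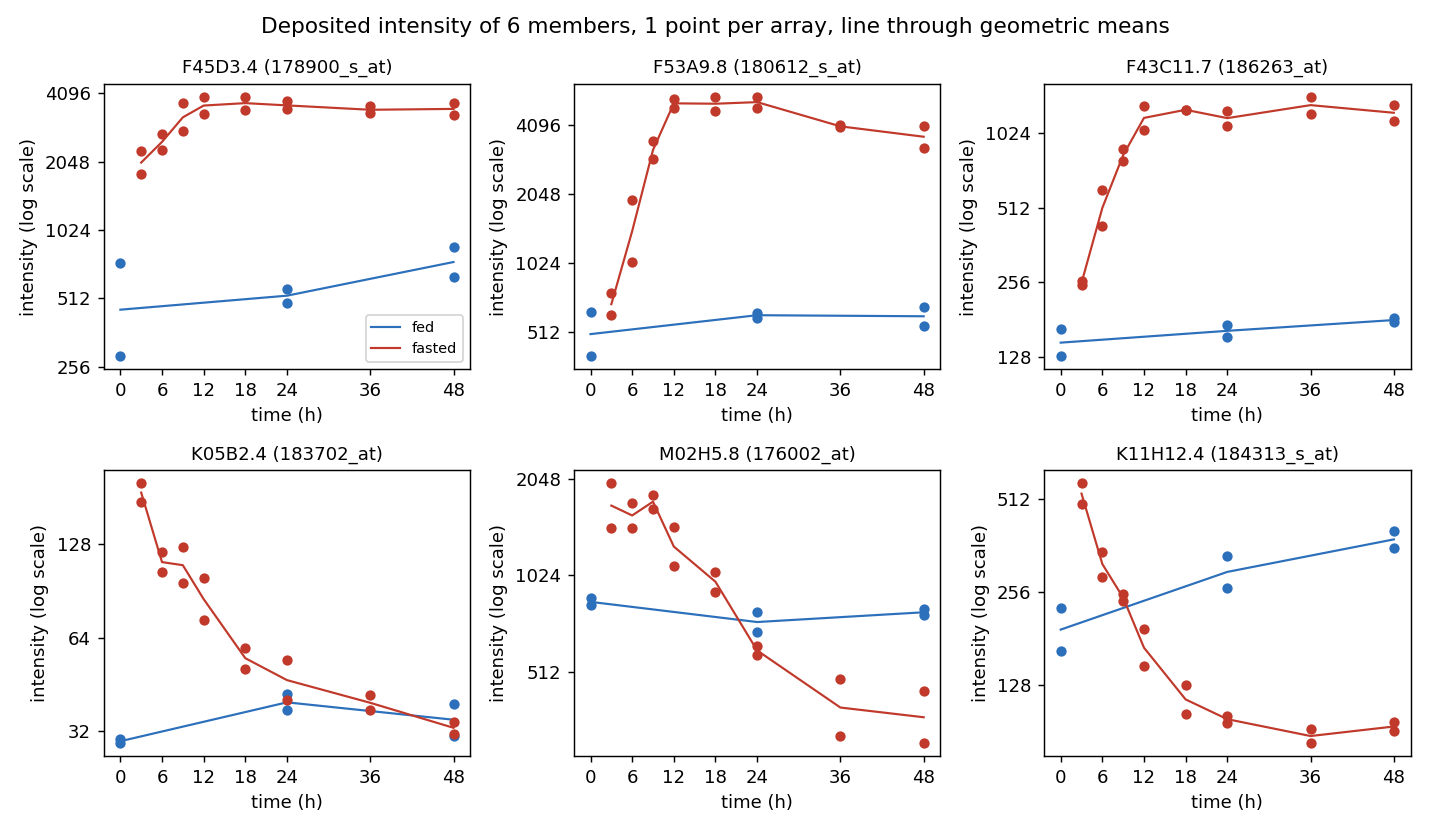
Deposited intensity on a log axis against time in hours for 6 members, with 1 point per array and a line through the geometric mean of the 2 arrays of each group, fed in blue and fasted in red. F45D3.4, F53A9.8 and F43C11.7 (top) rose and stayed high to 48 h. K05B2.4, M02H5.8 and K11H12.4 (bottom) rose at 3 h and came down to or below the fed level by 48 h.

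From 9 h to 48 h of fasting the members parted. Worms fasted for 9 h were on day 2 of adulthood and those fasted for 48 h on day 4. No fed group was sampled at 9 h, so age and fasting time cannot be told apart in this contrast. Of the 69, 22 were higher at 48 h than at 9 h, by 0.464 to 1.69, and 14 were lower, by -0.482 to -2.28, against 8.67% and 6.94% of all probe sets. Each of these counts depends on both replicates: leaving out any 1 of the 4 arrays gave between 15 (without Fast 9 h replicate 1) and 22 members called in all, in place of 36. Of the 22 that went on rising, 21 were also higher than fed worms at 48 h. Of the 14 that fell, 5 were still higher than fed worms, 4 were lower than fed worms and 5 were called in neither direction.

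Y43C5A.3 and F23F1.6 had the largest differences between 9 and 48 h. Y43C5A.3 read 378 and 549 at 9 h and 1220.3 and 2023 at 48 h, a difference of 1.69 ± 0.26 (SE, limma adjusted p = 0.000528). F23F1.6 read 158 and 162 at 9 h and 446 and 545 at 48 h, a difference of 1.52 ± 0.18 (adjusted p = 6.94e-05). In both genes the arrays of the 2 times lay far apart. The others of the 5 with the smallest adjusted p were K09C4.1 (0.84 ± 0.13, adjusted p = 0.000733), F18C5.10 (180537_s_at, 0.84 ± 0.14, adjusted p = 0.00106) and ZC443.3 (178432_s_at, 0.86 ± 0.15, adjusted p = 0.00128), each with the SE after the log2 difference by limma. Y50E8A.1 (0.94), C35C5.9 (0.88) and F17C11.4 (0.87) had larger log2 differences than these, with a higher adjusted p.

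K05B2.4 was highest at 3 h and back near the fed level by 48 h. It read 29.3 and 30.1 in fed worms at 0 h, then 175 and 201 after 3 h of fasting, 121 and 104 after 6 h, 125 and 95.7 after 9 h, 99.8 and 72.8 after 12 h, 59.4 and 50.9 after 18 h and 34.3 and 31.4 after 48 h. Fed worms at 48 h read 31.0 and 39.2, so the fasted arrays had come back among the fed ones. From 9 to 48 h it fell by 1.41 on the log2 scale (SE 0.16, limma adjusted p = 4.16e-05). In the mutant set K05B2.4 stayed between 23.2 and 36.8 in all 24 arrays, fed and fasted.

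M02H5.8 and K11H12.4 ended below fed worms. M02H5.8 read 1438 and 1978 at 3 h and 1649 and 1825 at 9 h, and 308 and 446 at 48 h, where fed worms read 804 and 768. It fell by 2.28 from 9 to 48 h (SE 0.24, limma adjusted p = 1.75e-05) and was lower than fed worms at 48 h by -1.09 ± 0.24 (adjusted p = 0.00228). K11H12.4 read 494 and 575 at 3 h, against 228 and 164 in fed worms at 0 h, and 90.6 and 97.4 at 48 h, where fed worms read 356 and 403. It differed from fed worms by -1.62 ± 0.18 at 24 h (SE, limma adjusted p = 7.34e-06) and by -2.04 ± 0.18 at 48 h (adjusted p = 6.51e-07), and fell by 1.44 from 9 to 48 h (SE 0.18, adjusted p = 7.99e-05). For both genes the fasted arrays crossed from above all fed arrays to below them.

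F15E6.4, F41E6.5 and Y87G2A.2 fell back in part or in full. F15E6.4 read 2157 and 2254 at 9 h and 384 and 608 at 48 h, a fall of 2.22 (SE 0.28, limma adjusted p = 0.000108). Its 48 h difference from fed worms, -0.78 ± 0.28 (adjusted p = 0.0458), was lost without Fast 48 h replicate 1 or either Fed 48 h array (adjusted p from 0.0782 to 0.41). F15E6.3, beyond 2 genes on chromosome IV, stayed above fed worms at 48 h, by 0.92 (180424_at) and 0.82 (180425_s_at). F41E6.5 fell by 0.92 from 9 to 48 h (SE 0.15, adjusted p = 0.000896), from 295 and 409 to 206 and 204, and was still higher than fed worms by 1.13. Y87G2A.2 read 318 and 288 at 3 h and 123 and 119.1 at 48 h, below the 177 and 232 of fed worms, a difference of -0.94 ± 0.16 (adjusted p = 0.000333) after -1.10 ± 0.16 (adjusted p = 9.26e-05) at 24 h.

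T16G1.7 was the third member lower at 24 h, at 184 and 200.1 in fasted against 291 and 295 in fed worms, a difference of -0.71 ± 0.24 (SE, limma adjusted p = 0.029). At 48 h its fasted arrays, 507 and 460.1, lay above the fed 349.9 and 436 again. The 24 h call was lost without Fast 24 h replicate 1 or either Fed 24 h array (adjusted p from 0.0974 to 0.187) and without quantile normalization (0.0762).

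The mutant set measured the members in other worms, 2 days older than the fed worms of the choice. In N2, 35 members were higher in fasted than in fed worms and 2 were lower, against 3.4% and 2.17% of all probe sets, with a median difference of 0.909 in the members and -0.008 over all probe sets. With the replicate number as a block, which pairs the samples of this set, 40 were higher and 3 lower, where 7.41% and 4.64% of all probe sets were. Of the 35, 33 had also been higher at both 24 and 48 h in the time course, which is 94.3% of the mutant-set list and 61.1% of the 48 h list. Of the 41 members that rose against all 6 fed arrays 43.9% were higher here, and of the 44 that passed without replicate 1 of Fed 0 h 52.3%, next to 50.7% of the 69. None of 8 germline markers was called here, with sums of 16246 to 19155 in fasted and 18315 to 22942 in fed N2. Of 8 intestinal markers 2 were lower and 0 higher, with sums of 6919 to 9365 in fasted and 16987 to 18788 in fed N2. No body muscle marker was called in N2, and the median over the 5 was -0.596. Their sums overlapped, at 3440 to 5660 fasted against 4738 to 8899 fed.

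F46C5.1 had the largest response in N2 of this set. It read 94.8, 52.1 and 27.5 in fed and 853, 1384 and 1295 in fasted worms, with no fasted array near any fed one. The difference was 4.08 ± 0.48 (SE, limma adjusted p = 1.01e-05), far above the 1.51 found at 48 h in the time course, where fasted worms read 262 and 207.

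F09F7.6 read 467, 242 and 199.8 in fed and 1839, 1793 and 1772 in fasted N2. The groups did not overlap, and the difference of 2.58 ± 0.22 (SE, limma adjusted p = 1.79e-07) was near the 2.19 of the time course at 48 h. ZC443.3 rose by 1.62 ± 0.19 (173558_at, adjusted p = 1.06e-05) and 1.56 ± 0.19 (178432_s_at, adjusted p = 1.45e-05), and Y32F6B.1, from 141, 149 and 140.2 to 431, 350.2 and 414, by 1.29 ± 0.16 (adjusted p = 1.38e-05).

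The 2 members lower in fasted N2 were again M02H5.8 and K11H12.4. M02H5.8 read 1205, 1124 and 1134 in fed and 202, 184 and 214 in fasted N2, a difference of -2.65 ± 0.30 (SE, limma adjusted p = 5.14e-06). K11H12.4 read 236, 543 and 488 in fed and 72.9, 86.3 and 69.2 in fasted N2, a difference of -2.32 ± 0.40 (adjusted p = 0.000832). Fed and fasted arrays did not overlap in either gene.

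F53A9.8 was not called in N2 of the mutant set. It read 1657, 983 and 817 in fed and 1010.1, 1275 and 1145 in fasted worms, which overlapped, with a difference of -0.06 (limma adjusted p = 0.977). Fed worms of the time course had read 401 to 663, although the sets were scaled apart, so levels were not tested between them. In all, 21 members that were higher at 48 h in the time course were not called higher in N2 of the mutant set.

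Each mutant was then compared fed against fasted. In kgb-1 worms 3 members were higher and none lower, against 0.213% and 0.789% of all probe sets. The replicate block gave 5 and 0 there, against 0.546% and 1.42%. Without the block, an unadjusted p under 0.05 was reached by 22 members on the higher and 3 on the lower side, against 607 and 651 of all 22548 probe sets. For jun-1 the calls were 11 higher and 3 lower, against 0.82% and 2.13%, and blocked by replicate 21 and 7, against 2.97% and 4.22%. For daf-16 they were 30 higher and 2 lower, against 2.25% and 2.43%, and blocked 38 and 4, against 4.91% and 4.32%. The median difference of the 69 was 0.366 in kgb-1, 0.449 in jun-1 and 0.646 in daf-16 worms, next to 0.909 in N2. Of 8 intestinal markers 3 were lower in fasted kgb-1, 4 in jun-1 and 3 in daf-16 worms, where 1 was also higher. Their sums were 5137 to 7575 fasted against 12637 to 19719 fed in kgb-1 worms, 3467 to 4326 against 10403 to 12239 in jun-1 worms and 7445 to 12132 against 11534 to 16924 in daf-16 worms. No body muscle marker was called in a mutant, and the median over the 5 was -0.929 in kgb-1, -1.52 in jun-1 and -1.51 in daf-16 worms, with sums of 1827 to 2818 against 3379 to 4582, 2882 to 3239 against 5211 to 5709 and 2785 to 6821 against 4816 to 14278. No germline, hypodermal or neuronal marker was called in a mutant, and the part of these markers in the members' responses was not tested.

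**Figure D4:**
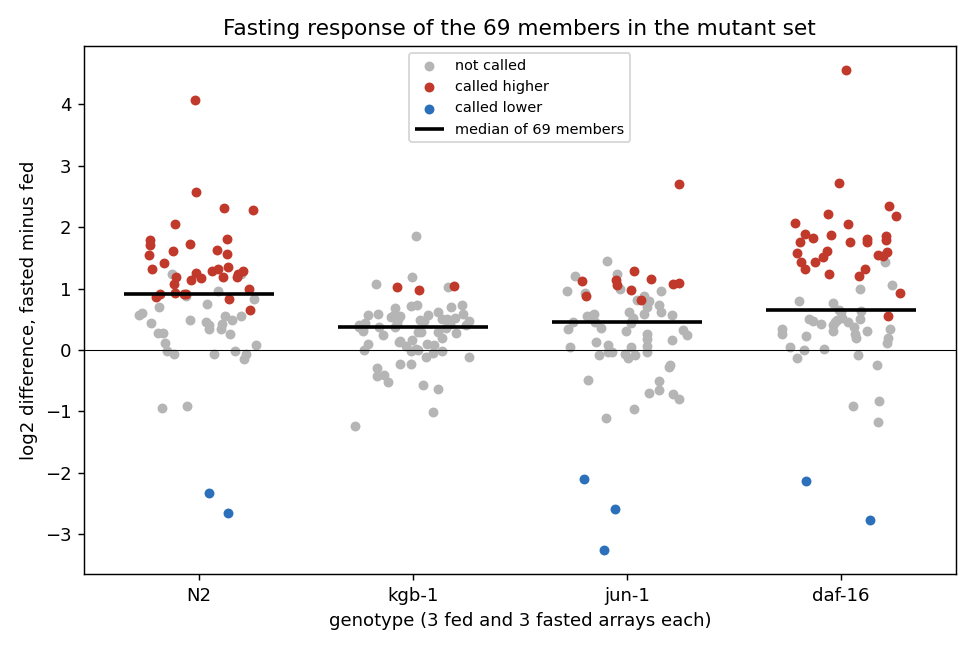
Each point is 1 of the 69 members, its y value the difference of log2(intensity + 16) between fasted and fed worms of the genotype on the x axis (3 fed and 3 fasted arrays each, quantile normalized, points spread sideways at random). Red points were called higher, blue points lower and grey points not called, and the bar is the median of the 69: 0.909, 0.366, 0.449 and 0.646. The lowest points in N2, jun-1 and daf-16 are M02H5.8.

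Whether a mutant's response differed from that of N2 was tested by the interaction. For kgb-1 no member was called by limma (0.00443% and 0.0266% of all probe sets were called higher and lower). An unadjusted p under 0.05 was reached by 2 members on the higher and 22 on the lower side, against 244 and 374 of all 22548 probe sets. The interaction value was below 0 in 59 of the 69 members, against 48.1% of all probe sets, and the median of the 69 was -0.593. A value below 0 can be a smaller rise, a fall in place of a rise, or a deeper fall. M02H5.8 had a deeper fall in jun-1 worms, at -3.26 against -2.65 in N2. For jun-1 F43H9.4 alone was called, lower, against 0.0177% and 0.16% of all probe sets, with 59 of 69 values below 0 (45.4% of all probe sets) and a median of -0.483. For daf-16 none was called (0.00887% and 0.102% of all probe sets). An unadjusted p under 0.05 was reached by 6 members on the higher and 5 on the lower side, against 433 and 486 of all 22548 probe sets. The value was below 0 in 32 of 69 members (48.4% of all probe sets), and the median was 0.0428, which became -0.0459 on the values as deposited. The 3 interactions share the N2 arrays, so they are not independent of each other.

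The replicate block added calls. Blocked shares of all probe sets, higher and lower, were 0.031% and 0.0665% for kgb-1, 0.071% and 0.395% for jun-1 and 0.0443% and 0.204% for daf-16. For kgb-1 it called F09F7.6, with a smaller rise (-1.55, adjusted p = 0.113 without and 0.0462 with the block), and M02H5.8 (2.23, 0.0664 and 0.0162). The kgb-1 arrays of M02H5.8 read 16.1 to 37.7, at or near the floor of 16, so its fall there could not be measured and the 2.23 is not a comparison of responses. For jun-1 it added F09F7.6 (-1.49, adjusted p = 0.0543 without and 0.0255 with the block) and Y43C5A.3 (-1.99, 0.071 and 0.00597). For daf-16 it called F53B2.8 (-1.24, adjusted p = 0.354 without and 0.0476 with the block). F53B2.8 read 779.6, 977 and 1574 in fasted N2 but 265, 278 and 281 in fasted daf-16 worms, the latter among its own fed values of 246, 373 and 435. In jun-1 worms F53B2.8 likewise read 264, 244 and 253 fasted against 184, 262 and 256 fed, although its jun-1 interaction was not called.

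F43H9.4 was the member whose response differed between N2 and jun-1 worms. It read 214, 150.1 and 168 in fed and 342, 328 and 388 in fasted N2, without overlap, and was higher by 0.86. In jun-1 worms it read 133, 228 and 143 fed and 82.2, 92.2 and 129.98 fasted, again without overlap, with a difference of -0.70 (limma adjusted p = 0.1, and 0.046 with the block). The responses differed by -1.56 ± 0.31 (SE, limma adjusted p = 0.0343, 0.0152 with the block). That call was lost in 8 of the 12 fits that left out 1 array, where adjusted p ran from 0.0902 to 0.152: those without replicate 2 or 3 of fed N2, fasted N2 or fed jun-1 worms, or replicate 1 or 2 of fasted jun-1 worms.

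F21C10.10 and F09F7.6 were the members called higher in all 4 genotypes. F21C10.10, the brightest member, read 1858, 2320.4 and 1879 in fed and 3516, 5059.9 and 3778 in fasted kgb-1 worms, a difference of 1.05 ± 0.16 (SE, limma adjusted p = 0.000745), and rose by 1.29 ± 0.16 in jun-1 worms (adjusted p = 2.83e-05), 1.19 in N2 and 1.53 in daf-16 worms. F09F7.6 rose by 1.03 ± 0.22 in kgb-1 worms (adjusted p = 0.0186), from 686, 541 and 565 to 1244, 1286 and 1152, and by 2.18 ± 0.22 in daf-16 worms (adjusted p = 1.35e-06). T05E12.3 was the third member higher in kgb-1 worms, from 1428, 1197 and 1182 to 2809, 2169.98 and 2335 (0.97 ± 0.21, adjusted p = 0.0208). Of these 3 calls in kgb-1 worms, F21C10.10 alone passed whichever array was left out: the others were lost together without Fed replicate 2 or 3 or Fast replicate 1 or 3, and F09F7.6 also without Fast replicate 2.

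In jun-1 worms 10 of the 11 members called higher were also higher in N2. ZC443.3 (178432_s_at) rose by 1.13 ± 0.19 (SE, limma adjusted p = 0.000867) and F46C5.1 by 2.71 ± 0.48 (adjusted p = 0.0014), the latter from 171, 85.2 and 64.7 to 541, 844 and 1165. The members lower in fasted jun-1 worms were M02H5.8 (-3.26 ± 0.30, adjusted p = 3.23e-07), F15E6.4 (-2.10 ± 0.41, adjusted p = 0.0033) and C50F7.5 (-2.60 ± 0.51, adjusted p = 0.00342). C50F7.5 read 3485, 2831 and 3427 in fed and 579, 388 and 661 in fasted jun-1 worms, whereas its N2 arrays overlapped, at 3847, 1394 and 1356 fed and 1101, 2596 and 3298 fasted. Its interaction with N2 was -2.58 (adjusted p = 0.305).

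In daf-16 worms 23 of the 30 members called higher were also higher in N2, and 7 were not called there. C06B3.6 read 526, 387 and 459.6 in fed and 1517, 2199 and 1500.05 in fasted daf-16 worms (1.86 ± 0.18 SE, limma adjusted p = 6.13e-07), and F46C5.1 rose by 4.56 ± 0.48 (adjusted p = 2.22e-06), from 114, 46.01 and 47.3 to 832, 3377 and 2645. M02H5.8 fell by 2.78 (SE 0.30, adjusted p = 2.43e-06) and K11H12.4 by 2.13 (SE 0.40, adjusted p = 0.00192). F53A9.8 was higher in fasted daf-16 worms by 1.87, at 1947, 3891 and 1532 against 1270.4, 344 and 458. The fed and fasted arrays of F53A9.8 in daf-16 worms did not overlap, unlike those in N2. The daf-16 interaction, the test of such a difference in response, was called for no member without the block.

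**Figure D5:**
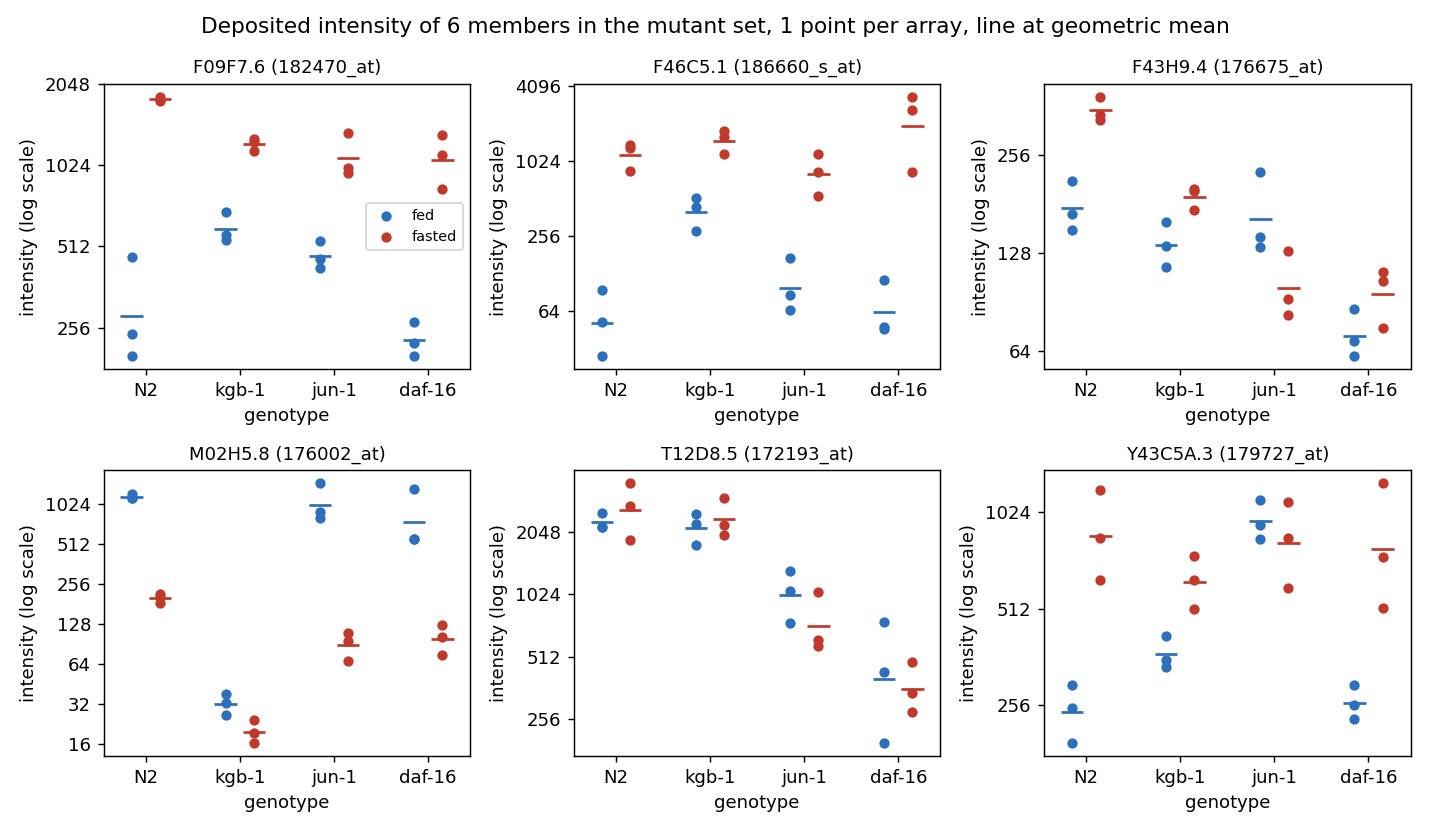
Deposited intensity on a log axis for 6 members by genotype, 1 point per array (3 fed in blue, 3 fasted in red) and a short line at each geometric mean. The fasted arrays of F09F7.6 and F46C5.1 lay above the fed ones in each genotype. Those of F43H9.4 lay above in N2 and below in jun-1 worms. M02H5.8 was near the floor of the values in kgb-1 worms. T12D8.5 was lower in daf-16 and in jun-1 worms than in N2, and Y43C5A.3 was already high in fed jun-1 worms.

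Some members differed between fed mutants and fed N2, before any fasting. In fed kgb-1 worms 7 were higher and 3 lower, against 0.443% and 1.46% of all probe sets, and blocked by replicate 10 and 6, against 2.16% and 3.79%. Leaving out replicate 2 or 3 of fed N2 or replicate 1 of fed kgb-1 worms gave 3 calls in all, and leaving out replicate 3 of fed kgb-1 worms gave 4. Fed jun-1 worms had 3 higher and 1 lower, against 0.35% and 1.01%, with 6 and 2 blocked, against 0.767% and 2.05%, and 2 were called in all without N2 Fed replicate 3. Fed daf-16 worms had 4 lower and none higher, against 0.408% and 0.0266%. An unadjusted p under 0.05 was reached by 19 members on the lower and 2 on the higher side, against 741 and 559 of all 22548 probe sets. Blocked, 8 were lower and 1 higher, against 0.767% and 0.071%. Of the daf-16 arrays, leaving out Fed replicate 1 gave 10 calls and leaving out Fed replicate 3 gave 2. Over N2 fed worms, the median of the 69 stood at 0.303 in fed and 0.586 in fasted kgb-1, 0.158 and 0.342 in jun-1, -0.147 and 0.599 in daf-16, and 0.909 in fasted N2. The jun-1 value of 0.158 became -0.0493 on the values as deposited, without quantile normalization.

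M02H5.8 showed the largest difference between fed genotypes. Fed N2 worms read 1205, 1124 and 1134, and fed kgb-1 worms read 32.0, 37.7 and 26.4. In fasted kgb-1 worms it read 24.1, 16.1 and 19.3, at the floor of the values, so a further fall could not be measured there. The fed difference was -4.65 ± 0.30 (SE, limma adjusted p = 6.01e-09), while fed jun-1 and daf-16 worms read 793 to 1452 and 553 to 1324. K11H12.4 was also lower in fed kgb-1 worms (88.8, 151 and 104 against 236, 543 and 488 in N2, -1.73 ± 0.40, adjusted p = 0.0257), as was F53B2.8 (290.5, 282 and 235 against 518, 489 and 477, -0.96 ± 0.24, adjusted p = 0.0391).

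Higher in fed kgb-1 worms were C10C5.3, F46C5.1 and T05E12.3 with the smallest adjusted p. C10C5.3 read 216, 167 and 146 against 57.1, 68.0 and 45.7 in fed N2 (1.34 ± 0.22 SE, limma adjusted p = 0.00134). F46C5.1 read 282, 513 and 441 against 94.8, 52.1 and 27.5 (2.54 ± 0.48, adjusted p = 0.00477), and T05E12.3 read 1428, 1197 and 1182 against 653, 528 and 544 (1.02 ± 0.21, adjusted p = 0.0109). These fed kgb-1 arrays all lay above those of fed N2. Leaving out 1 of the 6 fed arrays ended the call of F53B2.8 in all 6 fits (adjusted p from 0.0502 to 0.187) and that of K11H12.4 in 4, without N2 Fed replicate 2 or 3 or kgb-1 Fed replicate 1 or 3 (0.106 to 0.187). T05E12.3 was lost without kgb-1 Fed replicate 1 (adjusted p = 0.074) or N2 Fed replicate 2 (0.0529), and F46C5.1 without N2 Fed replicate 3 (0.0509).

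In fed jun-1 worms Y43C5A.3 read 842, 1118 and 936 against 295, 249.99 and 194 in fed N2, a difference of 1.99 ± 0.31 (SE, limma adjusted p = 0.000761). Its fasted jun-1 arrays, 592, 849 and 1099, overlapped the fed ones, and fasted N2 read 630.4, 1199 and 849, so fed jun-1 worms already stood at the fasted N2 level. T05E12.3 was higher by 1.18 ± 0.21 (adjusted p = 0.00317) and C06B3.6 by 0.89 ± 0.18 (adjusted p = 0.0079), and F21C10.10 lower by -0.66 ± 0.16 (adjusted p = 0.0436). The F21C10.10 call was lost without any 1 fed array other than jun-1 Fed replicate 3 (adjusted p from 0.0991 to 0.177), and that of C06B3.6 without N2 Fed replicate 3 (adjusted p = 0.0568).

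In fed daf-16 worms T12D8.5 was lower by -2.47 ± 0.38 (SE, limma adjusted p = 0.00171), at 434, 196 and 753 against 2536, 2157 and 2166 in fed N2. It stayed low when daf-16 worms were fasted, at 279, 485 and 341, and its N2 response in this set, 0.11, was not called. The low level was not particular to daf-16 worms. Fed jun-1 worms read 749, 1069 and 1325, also below every fed N2 array, although that difference was not called. Fasted jun-1 worms read 617, 579 and 1055, below the 1878, 2727 and 3518 of fasted N2. C08F11.13 (175229_at) was lower by -1.27 ± 0.21 (adjusted p = 0.0031), at 103, 61.8 and 72.2 against 303, 167 and 197, yet rose in fasted daf-16 worms by 1.76. C50F7.5 was lower by -2.89 ± 0.51 (adjusted p = 0.0052), a call lost without daf-16 Fed replicate 2 (0.0588) or 3 (0.0579), and F43H9.4 was the fourth, lower by -1.10.

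Genes with a gene-class name that passed the same limits, 116 probe sets, were set beside the members. At 24 h 83 of the 116 were higher and 8 lower, with a median of 1.01, and at 48 h 76 and 7, with a median of 0.819. In N2 of the mutant set 46 were higher and 5 lower, with a median of 0.653. From 9 to 48 h 14 were higher and 19 lower, which is 12.1% and 16.4% of them. Of the members 31.9% were higher and 20.3% lower, against 8.67% and 6.94% of all probe sets. The share still called higher was thus 78.3% of members against 71.6% at 24 h and 78.3% against 65.5% at 48 h. In kgb-1 worms 5.17% of the gene-class probe sets and 4.35% of the members were called higher, in jun-1 worms 10.3% and 15.9%, and in daf-16 worms 33.6% and 43.5%. The kgb-1 interaction had a median of -0.411 in the gene-class probe sets, where 22 of 116 values were above 0, and of -0.593 in the members, where 10 of 69 were. The jun-1 interaction had medians of -0.506 and -0.483. The difference between the kinds of name was not tested.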

How the data were processed

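RNA of whole worms was measured on 46 arrays of 1 Affymetrix design, 22 for the time course and 24 for the mutants. RNA was extracted with Trizol, and 100 ng of it was amplified in 2 rounds into labelled cRNA, per the labels' protocols. The deposited intensity of each probe set on each array is on a linear scale. The submitters' processing notes name PLIER, a probe-set summary method, and its version and normalization are not given in the sources used here. No deposited value lies below 16, as when an offset of 16 has been added. The number of arrays limits the precision of each comparison.

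The annotation gave 20766 probe sets 1 symbol, 887 several and 895 none, and 20701 of the first were found in the WBcel235 reference gene table. Of the probe sets, 77 controls were left out and 22548 tested, with no filter on low values, so all 69 members were tested. Members were chosen on the deposited values. Their choice, the lists and the rule for the genes named were made with earlier results of these data known.

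For tests, log2(intensity + 16) was quantile normalized within each set and fitted with limma 3.58.1 in R 4.3.3 (lmFit and trended eBayes), using a term for each group, no block and 1 spread per set. Tests were two-sided, p-values were Benjamini-Hochberg adjusted over all 22548 probe sets, and a probe set was called under 0.05. The Fed 0 h, Fast 3 h and Fast 6 h arrays chose the members and enter no contrast, but they share in the normalization and spread of the time course fit. The replicate number was taken to pair samples of the mutant set, where deviations from the group means correlated at 0.157 to 0.739 between samples of 1 number. On simulated data for Fast 48 h against Fed 48 h over 22548 probe sets, the fit recovered 84 of 100 changes of size 1 and 99 of 100 of size 2 (log2), with 12 false calls. The changes were put only into brighter probe sets, with normal noise independent between arrays. These rates therefore do not cover dim probe sets, correlated replicates or a contrast with as many changes as the real one. Named are the 10 members with the largest rise, those called with the smallest adjusted p and separate arrays in each comparison (up to 5 each way, 3 in mutants), those nearest the limits, and neighbours. Groupings by product and promoter motifs were not used here. Alternatives were other offsets, no quantile normalization, no trend, the brighter probe sets, 1 probe set per gene, the replicate block, other limits, the time course without the arrays of the choice, and each array left out.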

Additional observations from a re-analysis of the deposited data

Results flagged for a closer look

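F43H9.4 was flagged because its response to fasting differed between genotypes by the test of the difference itself. The jun-1 response minus the N2 response was -1.56 on the log2 scale (SE 0.31, limma adjusted p = 0.0343). Fasted N2 arrays lay above the fed ones in 3 of 3 and fasted jun-1 arrays below them in 3 of 3.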

How the results depend on the processing

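With other limits the members numbered 34 (rise of at least 1) or 44 (intensity of 200 or more), and 50 to 120 with 1 array of the choice left out, the highest without N2 Fed 0 h replicate 2. The replicate block moved the number called by over 1.5 times in the mutant set: to 5 for the kgb-1 response, 28 for jun-1, 16, 8 and 9 for fed kgb-1, jun-1 and daf-16 against fed N2, and 2, 3 and 1 for the kgb-1, jun-1 and daf-16 interactions. In the time course the same correlations were 0.356 to 0.442, within the range of the mutant set. With 2 arrays per group, both replicate numbers give the same value there by construction. The block gave 58 at 24 h, 61 at 48 h, 46 for 48 against 9 h and 0 for fed worms. Of all probe sets it called 20.5% higher and 22.2% lower at 24 h, against 16.5% and 15.7% without it. The jun-1 interaction count was 0 with no added offset and 2 with an offset of 50, no quantile normalization, no trend, the brighter probe sets or 1 probe set per gene, and the kgb-1 count was 1 with an offset of 50. With 1 array left out, the counts ran 53 to 55 at 24 h, 53 to 55 at 48 h, 15 to 22 for 48 against 9 h, 0 to 0 for fed worms, 28 to 39 in N2, 1 to 3 in kgb-1, 12 to 16 in jun-1 and 25 to 35 in daf-16 worms. For the interactions they ran 0 to 1, 0 to 2 and 0 to 0, and for fed mutants 3 to 9, 2 to 5 and 2 to 10. A lone remaining array is then assumed to vary like the other groups, and the cause of these shifts was not tested.

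Without quantile normalization all probe sets split 22.3% higher to 9.64% lower at 48 h and 13.5% to 4.37% for 48 against 9 h, while members kept 55 higher and 4 lower, and 23 and 10. The members' median changed sign there for fed jun-1 against fed N2 (0.158 to -0.0493) and for the daf-16 interaction (0.0428 to -0.0459). Leaving out Fast 9 h replicate 1 turned 22 higher and 14 lower from 9 to 48 h into 7 and 8. The 16 time course arrays outside the choice gave 24 and 16 there, and 0 for fed worms. No named gene's call changed sign under an alternative run. Each named call was refitted with each of its arrays left out in turn, and 44 of these 324 refits lost the call. Several refits lost the same call, such as 8 of 12 for the jun-1 interaction of F43H9.4. No named call was lost with the block, and 5 losses came under the other settings. Dim members near the offset, such as K05B2.4 and M02H5.8 in kgb-1 worms, have their differences compressed.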

Other observations

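Further probe sets of member genes, outside the limits, did not always follow the member. F48E3.6 (175071_s_at) rose by 0.713 by the same measure with one Fast 6 h array at 84.4, and differed by 1.56 at 48 h (limma adjusted p = 0.000122), next to 1.96 for its member probe set. T22B7.3 (180616_at), at 51.9 and 56.8 in the Fast 6 h arrays, differed by 1.35 at 48 h (adjusted p = 1.86e-05), and F13C5.2 (192092_at), with a rise of 0.435, by 1.67 (adjusted p = 1.17e-05). F41E6.5 (174090_at) differed by -0.436 at 48 h (adjusted p = 0.343) where its member probe set was higher by 1.13, and its Fast 6 h arrays read 51.4 and 121. The second F37A8.5 probe set, 177835_at, read 26.8 and 28.4 and showed no called difference at 48 h (0.01, adjusted p = 0.942).

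Across the 69 members, the 48 h difference in the time course and the N2 response in the mutant set, which share no array, had the same sign in 63. Members were chosen for a rise, and 61 were above 0 at 48 h and 59 in N2 of the mutant set. Much of the shared sign thus follows from those counts, and the share over all probe sets was not computed. Pearson's r over the members was 0.639, against 0.705 over all probe sets. Both the sign count and r run across probe sets measured together on the same arrays within each set. Such probe sets are not independent, and no p is given.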
